A study of Mus musculus with 12 samples.

Results

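The 7 interferon regulatory factor genes Irf1, Irf2, Irf3, Irf5, Irf7, Irf8 and Irf9 were followed in mouse whole brain through every probe set that the platform annotation assigns to them. A probe set is a group of short probes on the array that together report 1 transcript. The 7 genes had 12 probe sets, of 22690 on the array, and were 7 of the 12393 genes that had a probe set of their own. Irf3 had 4 probe sets, Irf5 and Irf8 had 2 each, and the other 4 genes had 1 each. RNA came from total brain lysate of adult mice that were untreated and kept under specific-pathogen-free conditions, and each sample was hybridised to 1 Affymetrix 3' expression array. The 12 arrays formed 4 genotypes of 3 arrays each. These were the double knockout of Usp18 and Ifnar1 (USP18ko:IFNARko), the knockout of Usp18 alone (USP18ko), the knockout of Ifnar1 alone (IFNARko, written IFNAR1ko in the design text) and the wild type (WT). The labels name no strain, no promoter and no cell type to which a knockout was restricted. Nor do they say that replicates were separate animals, and the p-values therefore reflect a spread among arrays that could be technical.

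Interferon regulatory factors are transcription factors that share a DNA-binding domain for sites containing GAAA repeats, called interferon-stimulated response elements (ISREs). Irf3, Irf5 and Irf7 are activated by phosphorylation below innate immune receptors and switch on interferon genes, whereas Irf9 is the DNA-binding subunit of ISGF3, the complex that carries the signal of the type I interferon receptor to its target genes. Irf1 activates many interferon-inducible genes, Irf2 was first known as its antagonist at the same sites, and Irf8 directs the development of myeloid cells, including microglia, the macrophages of the brain. Irf7 and Irf9 are themselves interferon-inducible, which makes the family part of a positive loop. Usp18 restrains signalling at the type I interferon receptor, of which Ifnar1 encodes a chain. The comparisons ask which family members depend on Usp18 in the brain, and whether they do so when the receptor chain is absent.

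Promoter sequences are shown for 4 of the genes, since Irf2 was the gene whose promoter window held a letter match to a site of this family and Irf7, Irf8 and Irf9 were the genes called in USP18ko against WT. RefSeq promoters on GRCm38.p6 covered 250 bases before and 50 bases after each tabled start, and 10 windows matched the 7 genes, with 2 each for Irf1, Irf8 and Irf9. For Irf5 and Irf7 the tabled start lies inside the annotated span of the gene. The same holds for the windows of Irf1, Irf8 and Irf9 with the higher coordinates. The windows were searched on both strands for the ISRE core GAAANNGAAA (TTTCNNTTTC on the other strand) and for the shorter factor site AANNGAAA (TTTCNNTT on the other strand). The shorter factor site can overlap the ISRE core. The ISRE core occurs in 3.44% of the 32851 promoter windows of the table and the shorter site in 23.9%. Capitals mark the matches in the 250 bases before the start, 5′ to 3′ on the strand of the gene. Irf2, at chr8:46739495-46739744 on the plus strand, had an ISRE core whose first base lies at -241 from the start and overlapping shorter sites at -245 and -239. Irf7, at chr7:141266425-141266674 on the minus strand, had no match. Irf8, at chr8:120736108-120736357 on the plus strand, and Irf9, at chr14:55603735-55603984 on the plus strand, are shown by the window with the lower coordinates, and neither had a match.
Irf2: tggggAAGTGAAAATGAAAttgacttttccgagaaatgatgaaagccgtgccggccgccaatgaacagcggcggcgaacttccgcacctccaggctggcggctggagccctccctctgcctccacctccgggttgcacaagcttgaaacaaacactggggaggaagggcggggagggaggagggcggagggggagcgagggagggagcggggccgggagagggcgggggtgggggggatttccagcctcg
Irf7: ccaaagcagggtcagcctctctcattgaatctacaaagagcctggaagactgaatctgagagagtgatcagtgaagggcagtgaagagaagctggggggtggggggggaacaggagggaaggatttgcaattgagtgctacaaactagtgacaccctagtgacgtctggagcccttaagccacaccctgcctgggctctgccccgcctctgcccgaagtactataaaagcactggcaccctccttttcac
Irf8: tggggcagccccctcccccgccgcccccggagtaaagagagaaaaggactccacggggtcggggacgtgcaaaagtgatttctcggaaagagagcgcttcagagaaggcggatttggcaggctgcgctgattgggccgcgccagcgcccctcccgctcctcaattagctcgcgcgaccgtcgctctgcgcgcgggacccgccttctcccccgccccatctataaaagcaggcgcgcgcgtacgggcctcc
Irf9: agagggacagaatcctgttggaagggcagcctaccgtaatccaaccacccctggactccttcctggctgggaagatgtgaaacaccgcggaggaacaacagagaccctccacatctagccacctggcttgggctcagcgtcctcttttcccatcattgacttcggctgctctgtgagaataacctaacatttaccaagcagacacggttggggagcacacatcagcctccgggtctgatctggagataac
The windows of Irf1, Irf3 and Irf5 and the other windows of Irf8 and Irf9 also held no match, which says only that these letters are not in these windows.

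The arrays were first checked against their labels. Ifnar1 read 6.56, 6.56 and 6.68 in USP18ko:IFNARko and 6.24, 6.59 and 6.47 in IFNARko, below all 6 arrays with the gene, which read 8.01, 7.76 and 7.97 in USP18ko and 8.21, 7.44 and 7.85 in WT. Usp18 read 3.50, 3.71 and 3.69 in USP18ko:IFNARko and 3.76, 3.58 and 3.55 in USP18ko, below WT with 4.36, 4.36 and 4.04. Usp18 was as low in IFNARko, with 3.55, 3.67 and 3.53, although these mice carry the gene, so its signal separates WT from all 3 other genotypes and does not by itself check the Usp18 knockout. The mean of 7 neuron markers ran from 9.79 to 10.58 over the 12 arrays, and that of 9 lymphocyte markers from 4.64 to 5.0. The WT arrays differed among themselves in the mean of 5 oligodendrocyte markers, which ran from 6.98 to 10.05. That mean ran from 8.29 to 8.54 in USP18ko:IFNARko, 7.57 to 8.70 in USP18ko and 7.71 to 8.48 in IFNARko. IFNARko replicate 1 stood apart: its correlation with the other arrays was at most 0.982, its signal for the 3' end of actin exceeded that for the 5' end by 1.48 on the log2 scale against 0.20 to 0.54 on the other 11, and it was the array with the lowest neuron markers. Xist, the RNA of the inactive X chromosome, was at 10.17 or above in all 3 USP18ko:IFNARko arrays and WT replicate 1 and at 5.69 or below in the other 8, so the Xist signal goes with the double knockout. Eif2s3y, a gene of the Y chromosome, read 3.05, 7.16 and 3.22 in USP18ko:IFNARko and 3.18 in WT replicate 1, against 7.26 to 8.94 in the other 8 arrays, so that USP18ko:IFNARko replicate 2 had a high signal for both genes. The labels give no sex.

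All levels below are deposited signals on a log2 scale, and differences are log2 differences between group means. Signals of different probe sets are not set against each other. Tests are limma's moderated test in 1 fit of all 12 arrays, and a gene is called at an adjusted p under 0.05 (Benjamini-Hochberg over 12393 genes). Over the 12 arrays the 12 member probe sets kept to a low or middle part of the signal scale, and 3 of the 7 genes, Irf1, Irf3 and Irf5, had a mean above the 40th percentile of all genes (6.72). No signal could be set against background, so a low level carries no statement on detection.

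In USP18ko brain, Irf7, Irf8 and Irf9 rose against WT, while Irf3 and the higher of the Irf5 probe sets differed by less than the spread between replicates. The called members were 3 of 7, all higher, where 1.15% of all genes were called higher. Groups did not overlap for 5 of the 7, Irf1 and Irf2 besides the called ones, all higher in USP18ko, where 4.07% of all genes were so placed. All 3 USP18ko arrays lay above all other 9 arrays for Irf1, Irf7, Irf8 and Irf9, 4 of 7, a placing that 2.15% of all genes shared. In the double knockout the same 4 genes were lower than in USP18ko. Between the double knockout, IFNARko and WT no member was called, and Irf7 was the member with the clearest separation, below WT on all 6 arrays that lack Ifnar1.

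**Figure D1:**
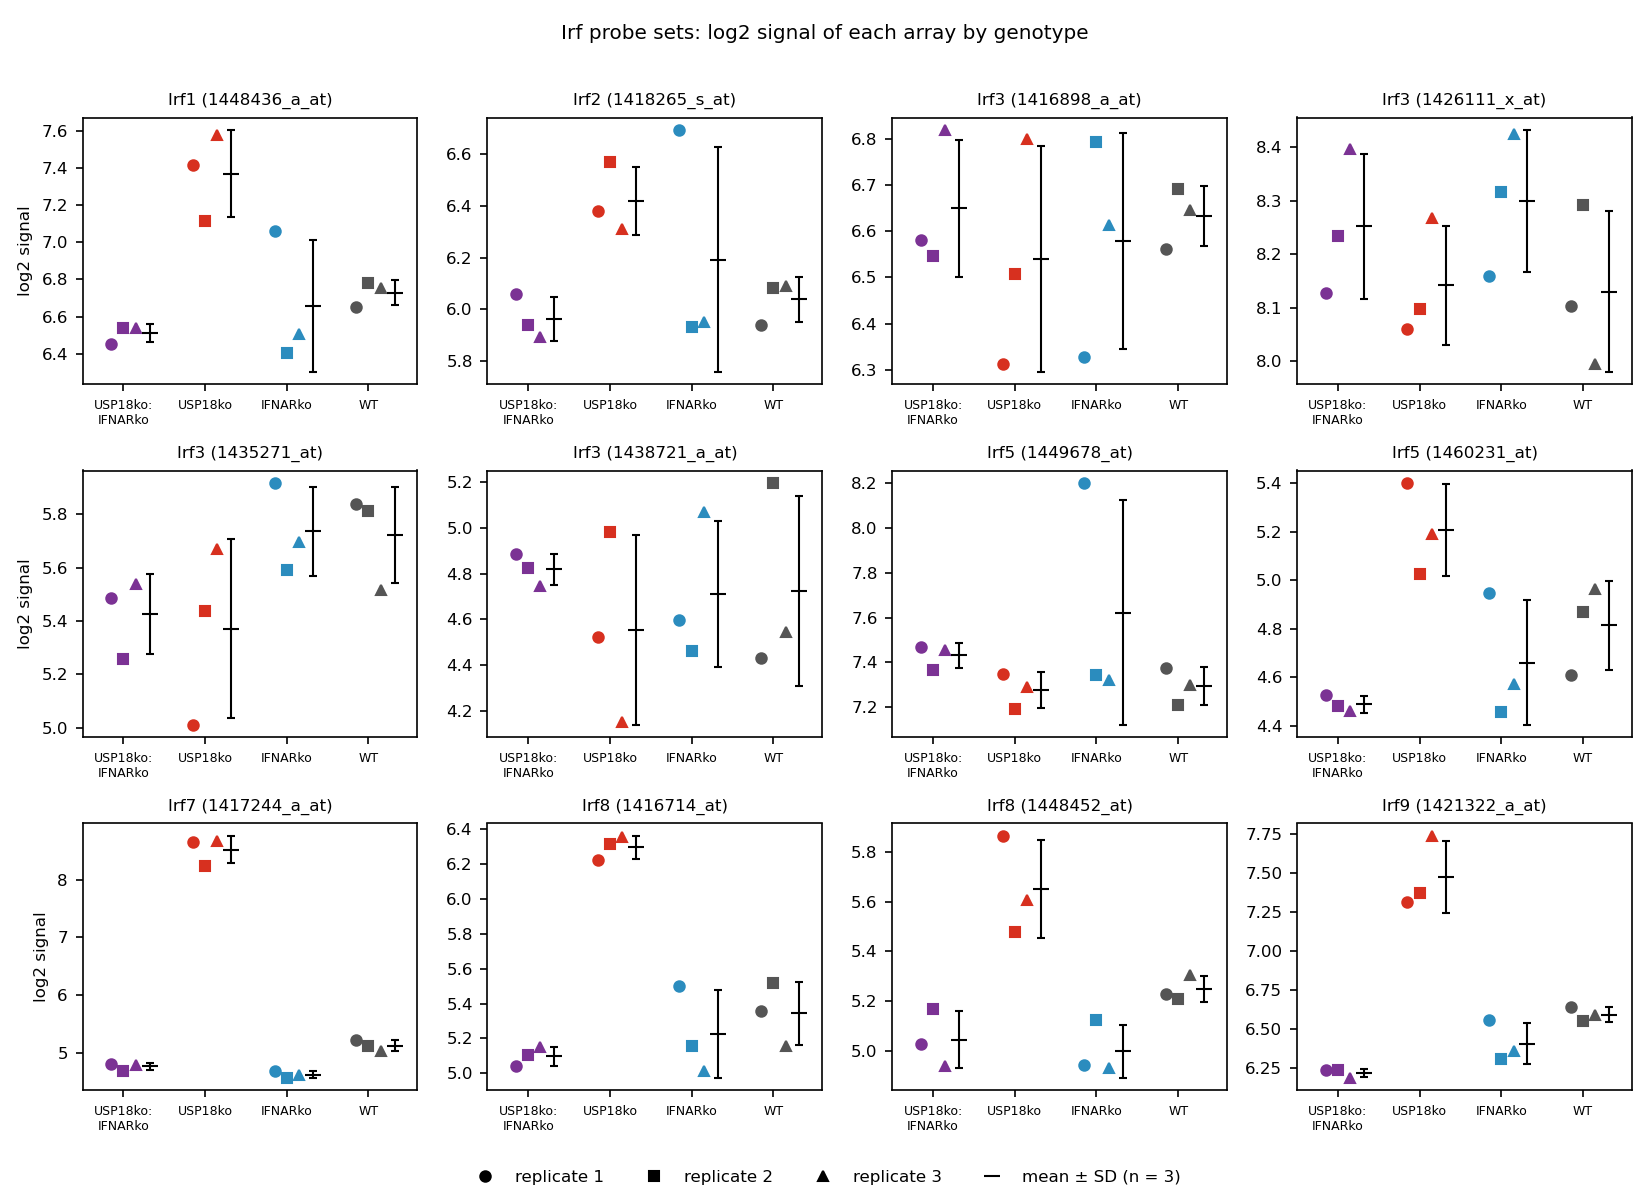
Levels of the 12 Irf probe sets on every array, 1 panel per probe set with its own vertical scale of deposited log2 signal. Each symbol is 1 array, its shape gives the replicate number, and the bar beside each genotype is the mean ± SD (n = 3). Irf7 is at 8.24 to 8.66 in USP18ko and at 5.22 or below on the other 9 arrays, and IFNARko replicate 1 lies apart for Irf1, Irf2 and 1449678_at of Irf5.

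Irf7, the interferon-induced member that amplifies interferon production, gave the largest difference of the family. The Irf7 signal was 4.81, 4.69 and 4.79 in USP18ko:IFNARko, 8.66, 8.24 and 8.66 in USP18ko, 4.69, 4.56 and 4.61 in IFNARko and 5.22, 5.12 and 5.04 in WT. The 3 USP18ko arrays were far above all others, and WT lay above both groups without Ifnar1. IFNARko and the double knockout nearly met, with 4.6853 on the highest IFNARko array and 4.6855 on the lowest double-knockout array. Irf7 averaged 8.52 ± 0.24 in USP18ko and 5.12 ± 0.09 in WT (SD, n = 3 each), and the means differed by 3.40 (SE 0.12, 95% interval 3.14 to 3.66, adjusted p = 4.71e-09). Leaving out each array in turn kept the difference between 3.33 and 3.54. Irf7 lies on chromosome 7 at 141263183 to 141266499 (GRCm38.p6) and was read by a single probe set, 1417244_a_at, whose suffix marks probes shared by transcripts of the same gene.

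Irf9, the DNA-binding subunit of ISGF3, rose by a smaller amount. Its signal was 6.24, 6.24 and 6.19 in USP18ko:IFNARko, 7.31, 7.37 and 7.74 in USP18ko, 6.56, 6.31 and 6.36 in IFNARko and 6.64, 6.55 and 6.59 in WT. USP18ko stood above the other 9 arrays, and the double knockout stood below all 9. The mean was 7.48 ± 0.23 in USP18ko and 6.59 ± 0.05 in WT (SD, n = 3 each), and the means differed by 0.88 (SE 0.12, adjusted p = 0.00100, highest 0.00797 when single arrays were left out). Irf9 lies on chromosome 14 at 55603985 to 55610030 and was read by 1421322_a_at.

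Irf8, which sets the myeloid and microglial fate, had 2 probe sets that moved the same way by different amounts. With 1416714_at, the set with the higher mean, the signal was 5.04, 5.10 and 5.15 in USP18ko:IFNARko, 6.23, 6.32 and 6.35 in USP18ko, 5.50, 5.16 and 5.01 in IFNARko and 5.36, 5.52 and 5.15 in WT. The 3 USP18ko arrays lay close together and above all other arrays. The USP18ko mean of 6.30 ± 0.07 exceeded the WT mean of 5.34 ± 0.18 (SD, n = 3 each) by 0.96 (SE 0.13, adjusted p = 0.00116). With 1448452_at the signal was 5.03, 5.17 and 4.94 in USP18ko:IFNARko, 5.86, 5.48 and 5.61 in USP18ko, 4.94, 5.12 and 4.93 in IFNARko and 5.23, 5.21 and 5.31 in WT. The USP18ko arrays were again above all others, but the difference of 0.40 from WT (SE 0.12) was not called when each of 20380 probe sets was tested by itself (adjusted p = 0.343, with 0.932% of probe sets called). Irf8 lies on chromosome 8 at 120736358 to 120756694, and its promoter window is shown above.

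Some microglial and macrophage markers moved with these genes. Of 16 markers measured, 5 rose in USP18ko against WT and 0 fell, where 1.15% of all genes were called higher. The median difference was 0.87 against -0.024 over all genes. The called ones were Ptprc, a phosphatase of blood-derived cells (2.12), Aif1 (1.93), C1qa, a complement subunit (1.79), Laptm5 (1.25) and Itgam (0.80), and the other 11 were not called. Of these 11, C1qc (1.60), C1qb (1.55), Tyrobp (1.26), Csf1r (0.89), Cd68 (0.85) and Trem2 (0.60) had the larger differences, and Tmem119 (0.41), Cx3cr1 (0.35), Olfml3 (0.11), Gpr34 (-0.28) and P2ry12 (-0.35) the smaller ones. The mean of the 16 markers per array ran from 6.71 to 6.79 in USP18ko:IFNARko, 7.53 to 8.13 in USP18ko, 6.74 to 6.96 in IFNARko and 6.30 to 7.46 in WT. Of 5 monocyte and neutrophil markers 1 rose, Plac8 by 3.35. S100a8 (1.90), Lcn2 (1.88), S100a9 (1.63) and Ccr2 (0.19) were not called, and Lcn2 had an SD of 2.40 in USP18ko. The mean of the 5 markers ran from 4.06 to 4.89 in USP18ko:IFNARko, 5.54 to 6.63 in USP18ko, 4.01 to 4.70 in IFNARko and 4.09 to 4.16 in WT. The part of these cells in the rise of Irf7, Irf8 and Irf9 was not tested, and in lysate of whole brain more cells of a type and more RNA per cell cannot be told apart. Of the 2 measured markers of plasmacytoid dendritic cells 1 rose, Bst2, which is also an interferon-inducible gene, by 3.38. The other, Tcf4, differed by 0.089 and was not called. None of 9 lymphocyte, 7 neuron, 6 astrocyte and 5 oligodendrocyte markers was called.

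Irf1, an activator of interferon-inducible and antigen-presentation genes, was high in USP18ko without passing the test against WT. Its signal was 6.45, 6.54 and 6.54 in USP18ko:IFNARko, 7.42, 7.11 and 7.58 in USP18ko, 7.06, 6.40 and 6.50 in IFNARko and 6.65, 6.78 and 6.75 in WT. Every USP18ko array was above the other 9, and within IFNARko replicate 1 was set off from the other 2 arrays. Irf1 averaged 7.37 ± 0.24 in USP18ko and 6.73 ± 0.07 in WT (SD, n = 3 each), and the means differed by 0.64 (SE 0.16, adjusted p = 0.126). Without IFNARko replicate 1 the same difference had an adjusted p of 0.00844, and over all single arrays left out the adjusted p ran from 0.00844 to 0.614. Irf1 lies on chromosome 11 at 53770014 to 53778374 and was read by 1448436_a_at.

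Irf2, first known as the antagonist of Irf1 at shared sites, lay above WT in USP18ko without passing the test. Its signal was 6.06, 5.94 and 5.89 in USP18ko:IFNARko, 6.38, 6.57 and 6.31 in USP18ko, 6.70, 5.93 and 5.95 in IFNARko and 5.94, 6.08 and 6.09 in WT. USP18ko lay above the double knockout and WT without overlap, and IFNARko replicate 1 was the highest array of all. The difference of USP18ko from WT was 0.38 (SE 0.17, 95% interval 0.0074 to 0.76) and was not called (adjusted p = 1.00). Irf2 lies on chromosome 8 at 46739745 to 46847458, and the suffix of its probe set, 1418265_s_at, marks probes that can also bind transcripts of related genes.

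Irf5, which acts below Toll-like receptors in myeloid cells, gave different pictures with its 2 probe sets. With 1449678_at, designed on the expressed sequence tag C80427 and the set with the higher mean, the signal was 7.47, 7.37 and 7.46 in USP18ko:IFNARko, 7.35, 7.19 and 7.29 in USP18ko, 8.20, 7.35 and 7.32 in IFNARko and 7.38, 7.21 and 7.30 in WT. IFNARko replicate 1 was high and the other 11 arrays spanned 7.19 to 7.47, and USP18ko differed from WT by -0.019 (95% interval -0.42 to 0.38). With 1460231_at, designed on the RefSeq transcript NM_012057, the signal was 4.53, 4.48 and 4.46 in USP18ko:IFNARko, 5.40, 5.03 and 5.19 in USP18ko, 4.95, 4.46 and 4.57 in IFNARko and 4.61, 4.87 and 4.96 in WT. Here all 3 USP18ko arrays stood above the other 9, as for Irf1, Irf7, Irf8 and Irf9, with a difference of 0.39 from WT (SE 0.15, adjusted p = 0.833 over probe sets). The gene lies on chromosome 6 at 29526130 to 29541869, and the gene-level values below are those of 1449678_at.

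Irf3, the constitutively present factor that waits in the cytoplasm for activation, had no called difference. With 1426111_x_at, the set with the highest mean, the signal was 8.13, 8.23 and 8.40 in USP18ko:IFNARko, 8.06, 8.10 and 8.27 in USP18ko, 8.16, 8.32 and 8.42 in IFNARko and 8.10, 8.29 and 7.99 in WT. All 4 groups overlapped, and the difference of 0.012 between USP18ko and WT had a 95% interval of -0.24 to 0.27, so that a difference as large as that of Irf8 or Irf9 lies outside it. Its direction turned with 9 of the alternative settings, arrays left out included. The suffix of this set marks probes that may bind other sequences. The other sets gave 6.58, 6.55 and 6.82 in USP18ko:IFNARko, 6.31, 6.51 and 6.80 in USP18ko, 6.33, 6.79 and 6.61 in IFNARko and 6.56, 6.69 and 6.65 in WT for 1416898_a_at, and USP18ko differed from WT by -0.35 with 1435271_at and by -0.17 with 1438721_a_at. None of the 4 sets was called in any comparison. Irf3 lies on chromosome 7 at 44997648 to 45002848.

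**Figure D2:**
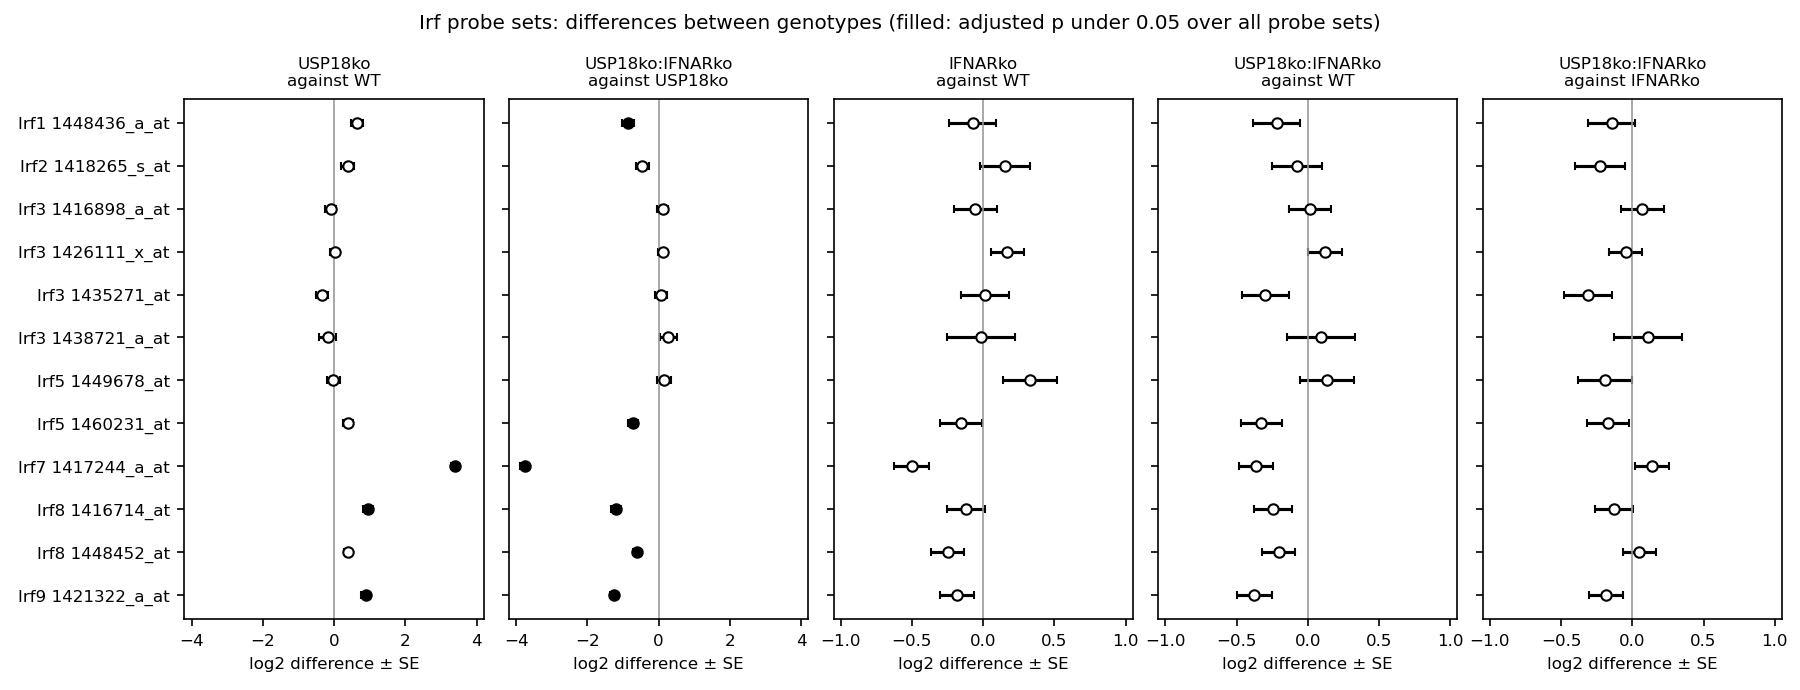
Differences of the 12 Irf probe sets between genotypes, 1 panel per comparison. The horizontal axis is the log2 difference ± SE from the fit of 12 arrays over all probe sets, on a wider scale in the first and second panels, and filled points have an adjusted p under 0.05. Irf7 reaches 3.40 in USP18ko against WT and -3.76 in USP18ko:IFNARko against USP18ko, and no point is filled in the 3 other panels.

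In mice without both genes, Irf1, Irf7, Irf8 and Irf9 were lower than in mice without Usp18 alone. Between USP18ko:IFNARko and USP18ko, 4 of the 7 members fell, where 1.48% of all genes were called lower. Irf2 was the fifth to lie lower without overlap, making 5 of 7, where 8.09% of all genes were so placed. Irf7 averaged 4.76 ± 0.07 in USP18ko:IFNARko and 8.52 ± 0.24 in USP18ko, a difference of -3.76 (SE 0.12, adjusted p = 1.33e-09). Irf9 averaged 6.22 ± 0.03 in the double knockout and 7.48 ± 0.23 in USP18ko, a difference of -1.26 (SE 0.12, adjusted p = 3.10e-05), and Irf8 averaged 5.10 ± 0.06 and 6.30 ± 0.07, a difference of -1.20 (SE 0.13, adjusted p = 1.31e-04). For Irf1 the means were 6.51 ± 0.05 in the double knockout and 7.37 ± 0.24 in USP18ko, with a difference of -0.86 (SE 0.16, adjusted p = 0.0134). The Irf1 call was lost without USP18ko replicate 1 (-0.84) or replicate 3 (-0.75), and without replicate 1 (-0.83), replicate 2 (-0.87) or replicate 3 (-0.87) of the double knockout, with a highest adjusted p of 0.0879. Of the 16 microglia and macrophage markers 6 fell in this comparison, C1qb (-1.82) besides the 5 named above, where 1.48% of all genes were called lower. The part of these markers in the differences was not tested.

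Because the Xist signal was high in all USP18ko:IFNARko arrays and in no USP18ko array, the fit was repeated with the Xist level as a covariate. Irf7, Irf8 and Irf9 were then still lower in the double knockout than in USP18ko, whereas Irf1, at -0.83, was no longer called (adjusted p = 0.274). The covariate rests on WT replicate 1, the 1 array with a high Xist signal outside the double knockout. On that array Irf7 read 5.22, Irf8 5.36 and Irf9 6.64, each above all 3 double-knockout arrays and below all 3 USP18ko arrays. The other WT arrays, with a low Xist signal, were placed the same way. WT replicate 1 also differs from the double knockout in genotype, so its placing does not separate the Xist signal from genotype. On the other 11 arrays the Xist signal and the double knockout cannot be told apart.

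Of the members not called against USP18ko, Irf2 had a difference of -0.46 (adjusted p = 0.607), and it was called without IFNARko replicate 1 (adjusted p = 0.0197). Irf5 with 1449678_at was the single member above USP18ko without overlap, by 0.16, where 8.89% of all genes were so placed, while 1460231_at fell by 0.72 (SE 0.15, adjusted p = 0.0344 over probe sets, 1.15% called). The lower set of Irf8, 1448452_at, fell by 0.60 in the same test (SE 0.12, adjusted p = 0.0236). In all, 6 of the 12 probe sets, covering Irf1, Irf5, Irf7, Irf8 and Irf9, fell. Irf3 differed by 0.11 (95% interval -0.15 to 0.37).

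Whether the effect of losing Usp18 differed with the receptor chain was tested as an interaction, which subtracts the difference of USP18ko from WT from that of USP18ko:IFNARko from IFNARko. The interaction was called for 3 of 7 members, all negative, where 0.823% of all genes were called negative. It was -3.26 for Irf7 (SE 0.17, 95% interval -3.62 to -2.89, adjusted p = 4.34e-07), -1.08 for Irf8 (SE 0.19, adjusted p = 0.0111) and -1.07 for Irf9 (SE 0.17, adjusted p = 0.00589). The Irf8 value is that of 1416714_at. Its other set, 1448452_at, had an interaction of -0.35 (SE 0.16, adjusted p = 0.932 over probe sets) and was not called. With the Xist covariate Irf7 kept its call, and Irf8 (adjusted p = 0.119) and Irf9 (adjusted p = 0.0905) lost theirs. Without IFNARko replicate 1 the interactions were -3.22 for Irf7, -0.94 for Irf8 and -0.99 for Irf9, and all 3 were called. For Irf1 the interaction was -0.78 (adjusted p = 0.337) and for Irf2 -0.61 (adjusted p = 0.861), and for Irf3 and Irf5 it was -0.059 and -0.17. Without IFNARko replicate 1 these were -0.58 for Irf1, -0.36 for Irf2, -0.13 for Irf3 and 0.12 for Irf5, and none was called. Without Ifnar1 no effect of losing Usp18 on Irf7 was detected, since USP18ko:IFNARko differed from IFNARko by 0.14 (SE 0.12, 95% interval -0.12 to 0.40).

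**Figure D3:**
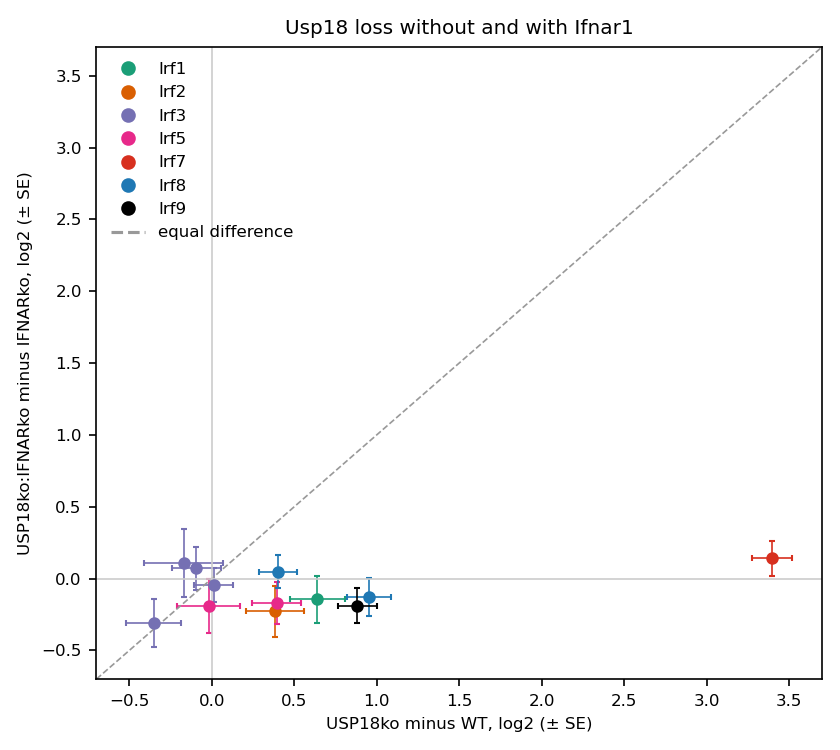
Effect of losing Usp18 on the 12 Irf probe sets without and with Ifnar1. The vertical axis is the log2 difference of USP18ko:IFNARko from IFNARko and the horizontal axis that of USP18ko from WT, both ± SE, with 1 point per probe set and a dashed line where both are equal. Irf7 lies at 0.14 on the vertical and 3.40 on the horizontal axis, and all points are within -0.31 to 0.14 on the vertical axis.

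Between USP18ko:IFNARko and IFNARko none of the 7 members was called by limma, as for all genes (0.0%), and none had an unadjusted p under 0.05, where 8.25% of all genes did. Irf7 was above IFNARko without overlap (0.14), although the nearest arrays read 4.6855 and 4.6853. Irf9 was below IFNARko without overlap (-0.19, 95% interval -0.45 to 0.07). Of all genes, 9.28% were so placed upward and 11.2% downward. The other differences were -0.15 for Irf1, -0.23 for Irf2, -0.048 for Irf3, -0.19 for Irf5 and -0.13 for Irf8, all with overlapping groups. These depended on IFNARko replicate 1. Without it they were 0.057 for Irf1, 0.023 for Irf2, -0.12 for Irf3, 0.099 for Irf5, 0.013 for Irf8, 0.17 for Irf7 and -0.11 for Irf9, and again none was called.

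Against WT, the loss of Ifnar1 alone or together with Usp18 left no member called by limma. In IFNARko 0 of 7 were called, with 0.00807% of all genes, and 1 member, Irf7, had an unadjusted p under 0.05, where 9.79% of all genes did. Irf7 averaged 4.62 ± 0.06 in IFNARko and 5.12 ± 0.09 in WT (SD, n = 3 each), and the means differed by -0.50 (SE 0.12, 95% interval -0.76 to -0.24, adjusted p = 0.244) with no overlap, where 6.74% of all genes were lower without overlap. In the double knockout 0 of 7 were called, with 0.0161% of all genes, and 2 members, Irf7 and Irf9, had an unadjusted p under 0.05, where 4.09% of all genes did. Groups did not overlap for 4 of 7, all lower in the double knockout, where 10.3% of all genes were so placed. These were Irf7 (-0.36, SE 0.12), Irf9 (-0.37, SE 0.12), Irf8 (-0.25, SE 0.13) and Irf1 (-0.22, SE 0.16), each with an adjusted p of 0.995. For Irf8 the groups nearly met, with 5.1505 on the highest double-knockout array and 5.1544 on the lowest WT array. IFNARko and the double knockout were both set against the same 3 WT arrays, so their placing below WT is not independent.

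For Irf7 all 6 arrays without Ifnar1, at 4.56 to 4.81, lay below all 3 WT arrays, at 5.04 to 5.22, which made 1 of 7 members, where 2.76% of all genes were so placed. The probe set 1448452_at of Irf8 had the same placing, with 4.93 to 5.17 without Ifnar1 and 5.21 to 5.31 in WT. For Irf1, Irf9 and the Irf5 set 1460231_at, 5 of the 6 arrays lay below all WT arrays, with IFNARko replicate 1 as the exception each time. For Irf9 that array read 6.56 and the lowest WT array 6.55. The share of all genes with 5 of the 6 arrays so placed was not computed, so these placings describe the probe sets only. The other differences of IFNARko from WT were -0.074 for Irf1, 0.15 for Irf2, 0.17 for Irf3, 0.33 for Irf5, -0.12 for Irf8 and -0.19 for Irf9, and without IFNARko replicate 1 they were -0.28 for Irf1, -0.097 for Irf2, 0.24 for Irf3, 0.037 for Irf5, -0.26 for Irf8 and -0.26 for Irf9. The Irf7 difference was -0.54 without that array.

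Of the rest of the family, Irf4 and the Irf2-binding corepressor Irf2bp1 were measured, and neither was called in any comparison. Irf4, a factor of lymphoid and myeloid cells, gave signals with the higher of its probe sets of 4.18, 4.16 and 4.25 in USP18ko:IFNARko, 4.16, 4.08 and 4.26 in USP18ko, 4.40, 4.09 and 4.01 in IFNARko and 4.43, 4.19 and 4.27 in WT. These groups overlapped. Irf2bp1 gave 9.05, 8.98 and 9.18 in USP18ko:IFNARko, 9.0, 8.96 and 9.06 in USP18ko, 7.59, 8.88 and 8.89 in IFNARko and 8.97, 8.79 and 8.99 in WT, and its lowest value was again from IFNARko replicate 1.

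Among measured genes that act on or with Irf proteins, Spi1 and Trim21 rose in USP18ko against WT, where 1.15% of all genes were called higher. Of 8 measured kinases and adaptors upstream of Irf3, Irf5 and Irf7, 0 were called in USP18ko against WT, with differences of -0.053 to 0.31 and a median of 0.043, and the kinase Ikbke differed by 0.23 and the adaptor Myd88 by 0.30. The DNA sensor adaptor Sting1 had the largest difference of them, 0.31 (adjusted p = 0.368). It fell by 0.50 in USP18ko:IFNARko against USP18ko (SE 0.10, adjusted p = 0.0202). That was the 1 call among the 8 in this comparison, where 1.48% of all genes were called lower. Among 8 DNA-binding partners and coactivators 1 rose in USP18ko, Spi1, the myeloid factor PU.1 that pairs with Irf8 on DNA. Spi1 averaged 5.74 ± 0.25 in USP18ko:IFNARko, 6.64 ± 0.13 in USP18ko, 5.65 ± 0.05 in IFNARko and 5.89 ± 0.13 in WT (SD, n = 3 each). It rose by 0.75 in USP18ko against WT (SE 0.13, adjusted p = 0.00847) and fell by 0.90 in the double knockout against USP18ko (adjusted p = 0.00162).

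Of 4 regulators of Irf protein stability 1 rose in USP18ko against WT, where 1.15% of all genes were called higher. Trim21, a ubiquitin ligase whose targets include Irf3 and Irf8, averaged 5.30 ± 0.12 in USP18ko:IFNARko, 6.81 ± 0.12 in USP18ko, 5.38 ± 0.46 in IFNARko and 5.62 ± 0.13 in WT (SD, n = 3 each). Trim21 rose by 1.19 in USP18ko against WT (SE 0.18, adjusted p = 0.00289). It fell by 1.52 in the double knockout against USP18ko, where 1.48% of all genes were called lower. The 8 measured interferon genes were type I genes that Irf3 and Irf7 activate on infection and Ifng, the type II gene. By limma 0 were called in USP18ko against WT, where 1.15% of all genes were called higher. Their differences ran from -0.19 to 0.10 with a median of -0.055. Their mean per array was low on the signal scale, 3.98 to 4.11 in USP18ko and 3.98 to 4.22 in WT. Whether these genes were detected is not known, so small differences do not show that interferon expression was unchanged. Ifnb1 differed by 0.10 and Ifng by 0.026.

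Most genes known to carry ISGF3 or Irf7 sites rose in USP18ko. Of 15 measured, 12 rose in USP18ko against WT, where 1.15% of all genes were called higher. The median was 2.39 over the 15, and the 1 that fell was Usp18 itself. Cxcl10, a chemokine, averaged 3.62 ± 0.19 in USP18ko:IFNARko, 8.92 ± 0.45 in USP18ko, 3.74 ± 0.16 in IFNARko and 3.92 ± 0.13 in WT (SD, n = 3 each), and rose by 5.0 in USP18ko against WT. Ifit1 and Ifit3, antiviral proteins that bind RNA or its sensors, rose by 4.87 and 4.19, and the antiviral gene Oasl2 by 3.65. Against USP18ko, 14 of the 15 fell in the double knockout, with a median of -2.70, where 1.48% of all genes were called lower. A negative interaction was called for 11, where 0.823% of all genes had one. These lists were chosen with results of these data known, so their counts describe them and do not stand as separate evidence.

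Of 11 Irf1 target genes 4 rose in USP18ko against WT, where 1.15% of all genes were called higher. All 4 were genes of antigen presentation or interferon-induced defence. The immunoproteasome subunit Psmb9 rose by 2.81, the class I light chain B2m by 2.28, the peptide transporter Tap1 by 1.52 and the GTPase Gbp2 by 3.87, and the median of the 11 was 0.40. The same 4 fell in the double knockout against USP18ko and had called negative interactions, where 1.48% and 0.823% of all genes were so called. Of 4 Irf8 target genes 1 rose, Cybb, the oxidase subunit of phagocytes, by 1.10 (SE 0.14, adjusted p = 4.48e-04), and it fell by 1.11 in the double knockout against USP18ko. In USP18ko:IFNARko against WT, USP18ko:IFNARko against IFNARko and IFNARko against WT, 0 genes of any of the lists were called. Over all genes 0.0161%, 0.0% and 0.00807% were called in these comparisons.

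**Figure D4:**
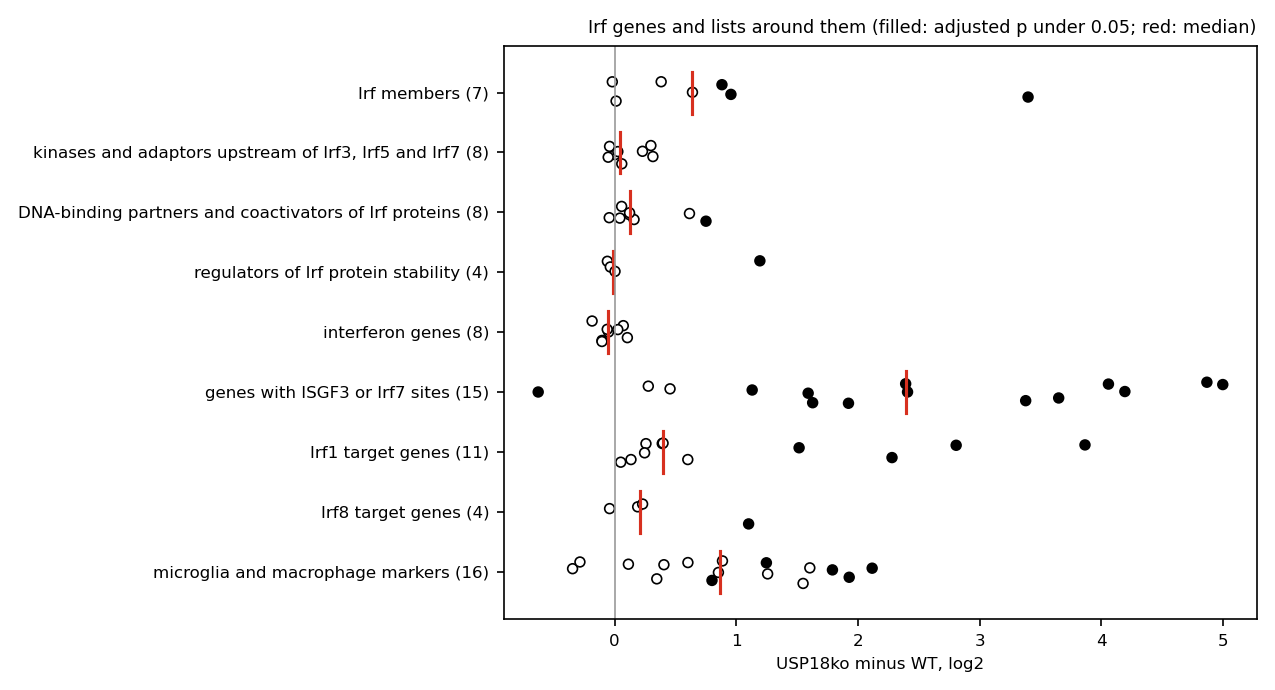
Differences of the Irf genes and of genes around them between USP18ko and WT. The horizontal axis is USP18ko minus WT on the log2 scale, each row is a gene list with the number measured in brackets, each circle is a gene (filled: adjusted p under 0.05) and red bars are medians. Genes with ISGF3 or Irf7 sites have a median of 2.39. Interferon genes, whose signals are low on the scale, stay within -0.19 to 0.10.

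The genes most like each member over the 12 arrays are given as a description. All share the arrays and the 3 high USP18ko arrays, so a high r can rest on that genotype alone. Irf7 was most like Ifit3 (Pearson's r 0.997), Oas1a (0.997) and Ifit1 (0.995), all interferon-inducible antiviral genes. Irf8 was most like Tmem106a (0.990), Rtp4 (0.989) and Apobec1 (0.986), and Irf9 most like C2 (0.976), C3ar1 (0.976) and Plac8 (0.974), of which the first pair encode a complement protease and a complement receptor. Irf1 was most like H2-Aa (0.976), a class II antigen-presenting chain, and the lysozyme genes Lyz1 (0.971) and Lyz2 (0.968).

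Irf2 was most like Tgfbi (0.958), Cd86 (0.948), a costimulatory molecule of myeloid cells, and Serpinb6b (0.938). Irf3 had the weakest likeness, with Telo2 (0.854), Crtap (0.841) and Arl2bp (0.815). For Irf5 the likeness to Cops3 (0.980), U2surp (0.979) and Nsmce2 (0.973) fell to 0.858, 0.810 and 0.690 over 11 arrays without IFNARko replicate 1. Within the family, the pairs of Irf7, Irf8 and Irf9 had r from 0.956 to 0.961, and Irf1 and Irf9 had 0.929. Irf2 and Irf7 had an r of 0.566 over 12 arrays and 0.909 over 11 without IFNARko replicate 1, whereas Irf3 had r between -0.44 and -0.064 with each of the other members.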

How the data were processed

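Log2 signals per probe set were deposited by the authors for 12 arrays. The R package affy is named per the submitters' processing notes. The background correction and normalization behind these values are not stated in the labels, and base 2 was inferred from the values (2.36 to 13.81). Of 22690 probe sets, 64 were controls, 20380 had 1 gene in the platform annotation, 691 had several and 1555 were not listed there. For a gene with several probe sets, the set with the highest mean signal stood for it (12393 genes).

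Genotypes were compared with limma 3.58.1 in R 4.3.3 (lmFit, contrasts.fit, eBayes) in 1 fit of 12 arrays, with 8 residual and 4.67 prior degrees of freedom. Two-sided p-values were adjusted within each of 6 comparisons by the Benjamini-Hochberg method, and calls were made at 0.05. By exact permutation, 3 arrays against 3 could not reach a p below 0.1, and the calls depend on limma's pooling of spread over genes. The labels give no source of pairing. In deviations from group means, all 3 same-numbered pairs of USP18ko:IFNARko and USP18ko correlated over 0.1 (0.136 to 0.273), against 6 of 18 over all pairs of groups. The fit was made without the replicate number, and with it as a block no member's call changed.

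The 7 members, 15 gene lists (138 genes, 28 without a value here) and most alternatives were chosen with earlier results of these data known. Genes named were all members and probe sets, other measured family genes, up to 4 called genes with the smallest p per list and comparison, the 3 genes most like each member, and Usp18, Ifnar1, Xist and Eif2s3y as array checks. List genes that were not called, and called ones beyond these, were named after their values were seen. The likeness without IFNARko replicate 1 was added after seeing the data. Alternatives were averaged probe sets, single probe sets, quantile normalization, median centring, a filter at the 40th percentile of mean signal, array weights, a trended and robust variance, the replicate block, only the groups compared, an Xist covariate, an absolute log2 difference of at least 1, and arrays left out. Promoter sequences were RefSeq's on GRCm38.p6.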

Additional observations from a re-analysis of the deposited data

Results flagged for a closer look

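The effect of losing Usp18 differed between mice with and without Ifnar1 for 3 members by the test of the interaction itself. A negative interaction was called for 0.823% of all genes. For Irf7 the interaction was -3.26, with 0.14 for USP18ko:IFNARko against IFNARko and 3.40 for USP18ko against WT, and all 3 USP18ko arrays were the highest of the 12. For Irf8 it was -1.08, with -0.13 for USP18ko:IFNARko against IFNARko and 0.96 for USP18ko against WT. These Irf8 values are those of 1416714_at, and the interaction of the other set, 1448452_at, was -0.35 and not called. For Irf9 the interaction was -1.07, with -0.19 for USP18ko:IFNARko against IFNARko and 0.88 for USP18ko against WT. In the limma fit with the Xist covariate Irf7 kept its call, while Irf8 (adjusted p = 0.119) and Irf9 (adjusted p = 0.0905) lost theirs.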

How the results depend on the processing

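Members called numbered 3 in USP18ko against WT, 4 in USP18ko:IFNARko against USP18ko, 3 in the interaction and 0 in the other 3 comparisons. The filter at the 40th percentile of mean signal, which leaves out Irf2, Irf7, Irf8 and Irf9, gave 0, 1 and 0 for the first 3. A log2 difference of at least 1 gave 1 for USP18ko against WT, and the Xist covariate gave 1 for the interaction. With single arrays left out these counts ran from 3 to 4, 3 to 5 and 3 to 3, and the replicate block changed no member's call, with 3, 4 and 3 members and an adjusted p of 7.54e-08 for Irf7 in USP18ko against WT. The interaction was not run on only the groups compared, since it uses all 4. Irf2 was called in USP18ko:IFNARko against USP18ko with array weights (-0.41), with only these groups (-0.46) and without both IFNARko replicate 1 and WT replicate 1 (-0.46), and Irf1 in USP18ko against WT without both these arrays (0.60). The cause of these shifts was not tested.

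All other changes of direction were in differences that were not called, and ranges below are over single arrays and both these arrays left out. In USP18ko against WT, Irf3 (0.012) was -0.15 with averaged probe sets, -0.0017 with quantile normalization, -0.016 with median centring, -0.033 with array weights, -0.0017 with the Xist covariate, -0.0013 without both arrays and -0.056 to 0.093 with arrays left out. Irf5 (-0.019) was 0.19 with averaged probe sets, 0.013 with array weights, 0.049 with the Xist covariate, 0.022 without both arrays and -0.062 to 0.024 with arrays left out. In USP18ko:IFNARko against WT, averaged probe sets gave -0.016 for Irf3 and -0.094 for Irf5, and the Xist covariate -0.056 for Irf5. In USP18ko:IFNARko against USP18ko, Irf5 was -0.28 with averaged probe sets and -0.11 with the Xist covariate. In IFNARko against WT, Irf2 was -0.085 with array weights, and arrays left out gave -0.31 to 0.053 for Irf1 and -0.15 to 0.29 for Irf2. In USP18ko:IFNARko against IFNARko, array weights gave 0.0069, 0.029, 0.10 and 0.029 for Irf1, Irf2, Irf5 and Irf8, and the Xist covariate gave 0.0050 for Irf3 and -0.088 for Irf7. Arrays left out there gave -0.27 to 0.057 for Irf1, -0.36 to 0.023 for Irf2, -0.12 to 0.015 for Irf3, -0.34 to 0.099 for Irf5 and -0.23 to 0.013 for Irf8. For the interaction, Irf3 was 0.11 with averaged probe sets and 0.0067 with the Xist covariate, Irf5 was 0.089 with array weights and 0.077 without both arrays, and arrays left out gave -0.14 to 0.0085 for Irf3 and -0.32 to 0.12 for Irf5. The cause of these turns was not tested.

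Genes called over the whole array were 143 in USP18ko against WT, 187 in USP18ko:IFNARko against USP18ko and 105 in the interaction, against 28, 37 and 20 with the 40th percentile filter. Array weights gave 500 for USP18ko:IFNARko against USP18ko and 814, against 0, for USP18ko:IFNARko against IFNARko, where the Xist covariate gave 363. That covariate gave 297, against 2, for USP18ko:IFNARko against WT, and 59 for the interaction. No background level was at hand for these signals, and the number of arrays limits the precision.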
